A study of Mus musculus with 47 samples.

Results

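The 35 genes described here are interferon response genes: transcription factors of the interferon pathway and genes that interferons are known to induce. They were chosen by name, as the genes whose probe sets carry those symbols on the Affymetrix array of the study, and 31 of the 35 could be measured among 8810 tested genes. *Isg15* has only a probe set shared with another gene symbol, and *Ifi44*, *Ddx58* and *Xaf1* have no probe set of their own in the platform table, so these 4 genes are not described further. The arrays measured total RNA from 47 mouse T-cell lymphoblastic tumours, 1 array per tumour, and each value is a MAS5 signal in arbitrary units. The titles put the tumours in 14 genetic backgrounds prone to T-cell lymphoma. Those with 3 tumours each are p53 knockout, Ikaros Plastic (a mutant allele of *Ikzf1*), beta-catenin transgenic, Tal1-LMO2 double transgenic, Nup98HoxD13 transgenic, olig1-LMO1 double transgenic, LMO1 transgenic and ThPOK transgenic. Those with 2 are Pokemon transgenic, Tal1 transgenic, rag E2A knockout and E2A knockout. The largest groups are the Cdkn2a knockout with retroviral insertional mutagenesis, with 9 tumours, and the TLX1 transgenic, with 6. The 6 TLX1 transgenic tumours are the only ones labelled TLX1 positive, so TLX1 status and that background cannot be told apart. The labels name neither the promoters that drive the transgenes nor the strain, age or sex of the mice, and no sample of normal thymus was analysed here.

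Interferons are cytokines that cells release on sensing virus or damage. Type I interferons signal through the *Ifnar1* and *Ifnar2* receptor chains to a complex that contains IRF9 and binds the interferon-stimulated response element in the promoters of antiviral genes such as the *Ifit*, *Oas* and *Mx* families and *Rsad2*. Type II interferon signals through *Ifngr1* and *Ifngr2* to factors that bind the gamma-activated site. That route is known for inducing *Irf1*, guanylate-binding proteins such as *Gbp2*, and the peptide transporter and immunoproteasome genes *Tap1* and *Psmb8*. Many genes respond to both, and in T-lineage tumours the RNA can come from the tumour cells or from the cells around them.

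The 5 promoters below are shown because they carry the letters of those elements in front of genes that the results turn on. They are RefSeq sequences of build GRCm38.p6, from 250 bases before to 50 after the annotated start, 5′ to 3′ on the strand of the gene. Capitals mark matches to GAAA followed by any 2 bases and GAAA for the response element and to TTCNNNGAA for the gamma-activated site, searched on both strands, and overlapping matches were merged.
Rsad2, chr12:26456403-26456702, minus strand: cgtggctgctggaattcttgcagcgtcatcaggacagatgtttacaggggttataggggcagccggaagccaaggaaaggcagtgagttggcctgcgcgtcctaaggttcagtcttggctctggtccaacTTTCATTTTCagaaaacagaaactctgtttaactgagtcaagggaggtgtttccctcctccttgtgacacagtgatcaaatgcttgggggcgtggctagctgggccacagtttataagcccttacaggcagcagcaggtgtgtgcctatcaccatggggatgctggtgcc
Ifit1, chr19:34640639-34640938, plus strand: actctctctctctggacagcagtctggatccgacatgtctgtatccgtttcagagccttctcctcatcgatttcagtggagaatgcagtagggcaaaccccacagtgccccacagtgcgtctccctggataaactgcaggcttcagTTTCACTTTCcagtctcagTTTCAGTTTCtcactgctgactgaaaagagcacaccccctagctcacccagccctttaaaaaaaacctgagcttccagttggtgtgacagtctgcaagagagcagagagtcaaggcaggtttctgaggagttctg
Irf1, chr11:53769764-53770063, plus strand: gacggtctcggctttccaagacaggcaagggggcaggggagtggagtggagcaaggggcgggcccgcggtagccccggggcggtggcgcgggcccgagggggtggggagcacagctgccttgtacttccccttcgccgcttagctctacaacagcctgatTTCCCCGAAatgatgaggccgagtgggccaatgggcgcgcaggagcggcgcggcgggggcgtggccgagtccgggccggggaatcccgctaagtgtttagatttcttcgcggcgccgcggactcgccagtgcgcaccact
Gbp2, chr3:142620413-142620712, plus strand: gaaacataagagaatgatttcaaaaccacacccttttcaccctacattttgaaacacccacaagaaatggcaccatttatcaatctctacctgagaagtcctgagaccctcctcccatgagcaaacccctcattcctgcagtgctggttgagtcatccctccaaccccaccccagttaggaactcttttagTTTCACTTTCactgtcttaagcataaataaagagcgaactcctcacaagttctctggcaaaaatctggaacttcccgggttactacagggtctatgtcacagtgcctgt
Igtp, chr11:58199306-58199605, plus strand: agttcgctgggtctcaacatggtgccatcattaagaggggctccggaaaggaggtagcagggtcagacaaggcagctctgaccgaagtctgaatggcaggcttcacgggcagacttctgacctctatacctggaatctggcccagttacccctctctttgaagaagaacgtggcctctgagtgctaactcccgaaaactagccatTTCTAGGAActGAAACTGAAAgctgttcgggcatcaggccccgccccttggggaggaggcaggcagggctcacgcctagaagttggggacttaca
The promoter table held 34 promoters of 28 of the 35 genes. The response element letters were in 14 of the 34 (41.2%), against 3.44% of all 32851 promoters of that length, and the gamma-activated letters were in 8 (23.5%), against 8.3% of all promoters. *Rsad2* and *Ifit1* hold the first kind only, *Irf1* the second only, and *Igtp* both side by side. The windows of *Tap1* and *Psmb9*, neighbouring genes on chromosome 17 that start close together on opposite strands, overlap and hold neither. A match describes letters in a window and says nothing of binding.

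Several arrays stood apart from the rest. Of 7 T-cell markers, *Thy1* was above the array median in 47 of 47 tumours, *Cd3d*, *Cd3e*, *Cd3g* and *Cd28* in 46 each, *Cd2* in 42 and *Cd5* in 35. All tumours but one had at least 5 of the 7 above it. In p53 knockout tumour 2, 1 of the 7 exceeded the median and their summed signal was 1536, against 6671 to 31040 in all tumours of the other backgrounds. In that tumour summed endothelial markers reached 14260 and stromal markers 25040, against at most 1165 and 10100 outside the p53 knockout group. TLX1 tumours 2, 5 and 6 held the highest 3'/5' ratios of the *Gapdh* control, up to 2.86 on the log2 scale, where no TLX1 negative tumour exceeded 0.706. Summed neutrophil markers ran from 220 to 64990 among TLX1 tumours, with TLX1 tumour 2 highest, against 95.3 to 4459 in the other 41. Cdkn2a knockout tumour 8 had 12.4% of all genes at least 1 log2 unit above their median over tumours, against 2.3% to 4.2% in the other tumours of its background. Of the altered genes, *Cdkn2a* read 12.7 to 37.3 in Cdkn2a knockout tumours, against 2.36 to 345 elsewhere, and *Tcf3*, which encodes E2A, 146 to 275 in E2A knockout tumours, against 203 to 1010. *Zbtb7a*, the Pokemon gene, read 862 to 884 in Pokemon tumours, against 6.07 to 137. *Lmo1* signal was 586 to 2526 in the tumours labelled Nup98HoxD13 transgenic and 11.1 to 34.3 in those labelled olig1-LMO1, which goes against both labels. *Lmo2* signal was 13.55 to 19.8 in the tumours labelled Tal1-LMO2, against 14.89 to 978 elsewhere, which goes against that label, and whether the probe set reads the transgene is not given in the sources used here. These 3 names are used below only as labels.

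Of the 31 genes, 23 (74.2%) differed among the 14 backgrounds by limma's moderated F test at an adjusted p under 0.05, where 68.1% of all tested genes did, so the share of the list was close to that of the array. The 8 that did not pass were *Stat2*, *Isg20*, *Ifit2*, *Ifi35*, *Gbp3*, *Igtp*, *Irgm1* and *Zbp1*. All of these but *Ifi35* were called in a single comparison below, without passing this test over all backgrounds. Each background was then compared with the unweighted mean of the other 13 background means, on the scale log2(signal + 15.9), with p adjusted over all 8810 genes. Differences below are on that scale with their SE, and a gene is called higher or lower where the adjusted p is under 0.05. Signals were low for 5 genes, *Ifit1*, *Ifit3*, *Mx1*, *Oasl2* and *Cxcl10*, which exceeded the array median on fewer than 10 arrays. Because each background also enters the mean that the others are set against, the comparisons share tumours. Over all backgrounds 53 of 434 differences were called, 33 higher and 20 lower, and 30 of the 31 genes were called at least once. The exception was *Ifi35*, whose signal stayed between 82.5 and 287.

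Calls fell in 7 of the 14 backgrounds. TLX1 tumours had 11 genes higher and 1 lower, where 19% of all tested genes were higher and 12.5% lower. In p53 knockout tumours 9 genes were higher and 1 lower, against 12.4% and 9.34% of all genes. Ikaros Plastic tumours had 8 higher and 0 lower (15% and 7.85% of all genes), and beta-catenin tumours 3 higher and 3 lower (11.4% and 7.42%). Cdkn2a knockout tumours stood the other way round, with 1 gene higher and 13 lower, where 16.1% of all genes were higher and 14.6% lower. ThPOK tumours had 1 higher and 0 lower (6.61% and 5.21% of all genes), and Tal1-LMO2 tumours 0 higher and 2 lower (1.44% and 5.23%). The map of the 31 genes over all tumours shows that tumours of one background often differed among themselves.

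**Figure D1:**
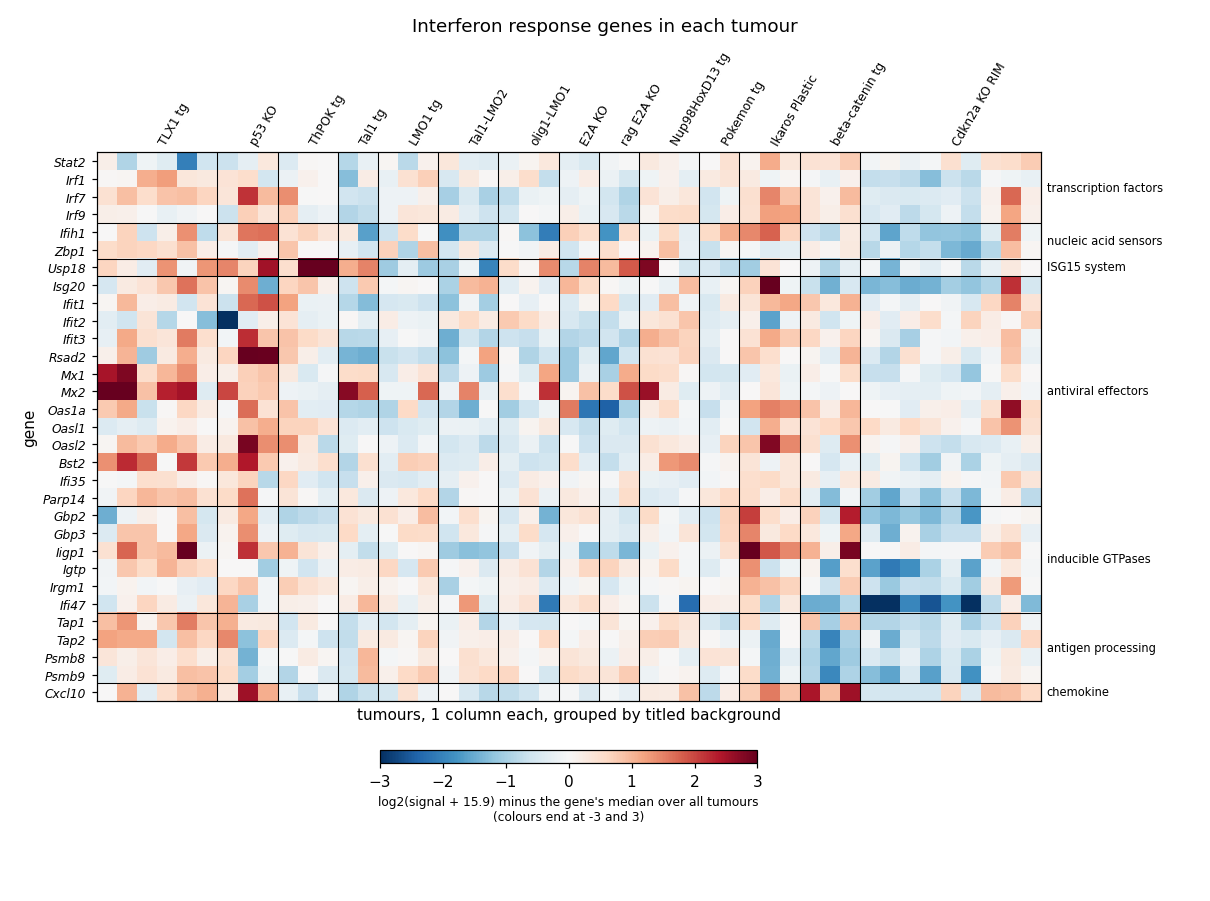
Each column is 1 tumour, grouped by background, and each row 1 gene, grouped by role; the colour is log2(signal + 15.9) minus the gene's median over the 47 tumours. tg, transgenic; KO, knockout; RIM, retroviral insertional mutagenesis. The left part of the Cdkn2a knockout block is blue for most inducible GTPases but not *Iigp1*, and p53 knockout tumour 2 is red over many antiviral effectors.

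Genes called higher made up 35.5% of the list in TLX1, 29% in p53 knockout and 25.8% in Ikaros Plastic tumours, each above the share of the array given beside it. Genes called lower made up 41.9% of the list in Cdkn2a knockout tumours. The median difference over the 31 genes was 0.47 in TLX1, 0.52 in p53 knockout and 0.50 in Ikaros Plastic tumours, where the median over all genes was 0.07, 0.04 and 0.09. It was -0.45 in Cdkn2a knockout tumours, where the median over all genes was 0.02. In Nup98HoxD13 tumours 24 of the 31 differences were positive, with a median of 0.18, and none was called.

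By limma 0 members were called in either direction in the other 7 backgrounds. All genes called higher and lower there were 0.67% and 0.363% in LMO1, 3.1% and 1.86% in Tal1, 0.204% and 0.454% in olig1-LMO1 and 1.51% and 2.83% in E2A knockout tumours. They were 0.295% and 1.26% in rag E2A knockout, 1.37% and 1.63% in Nup98HoxD13 and 0.352% and 0.602% in Pokemon tumours. At an unadjusted p under 0.05 there were 0 in Pokemon tumours, 2 each in LMO1 and E2A knockout tumours, 3 each in olig1-LMO1 and Nup98HoxD13 tumours, and 6 each in Tal1 and rag E2A knockout tumours. All genes under that p were 11.7% in Pokemon, 13.3% in LMO1, 17.9% in E2A knockout and 12% in olig1-LMO1 tumours. In Nup98HoxD13, Tal1 and rag E2A knockout tumours that share was 16.1%, 18% and 15.9%. The smallest adjusted p of a member in these 7 backgrounds was 0.0769, for *Ifit3* in Nup98HoxD13 tumours.

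**Figure D2:**
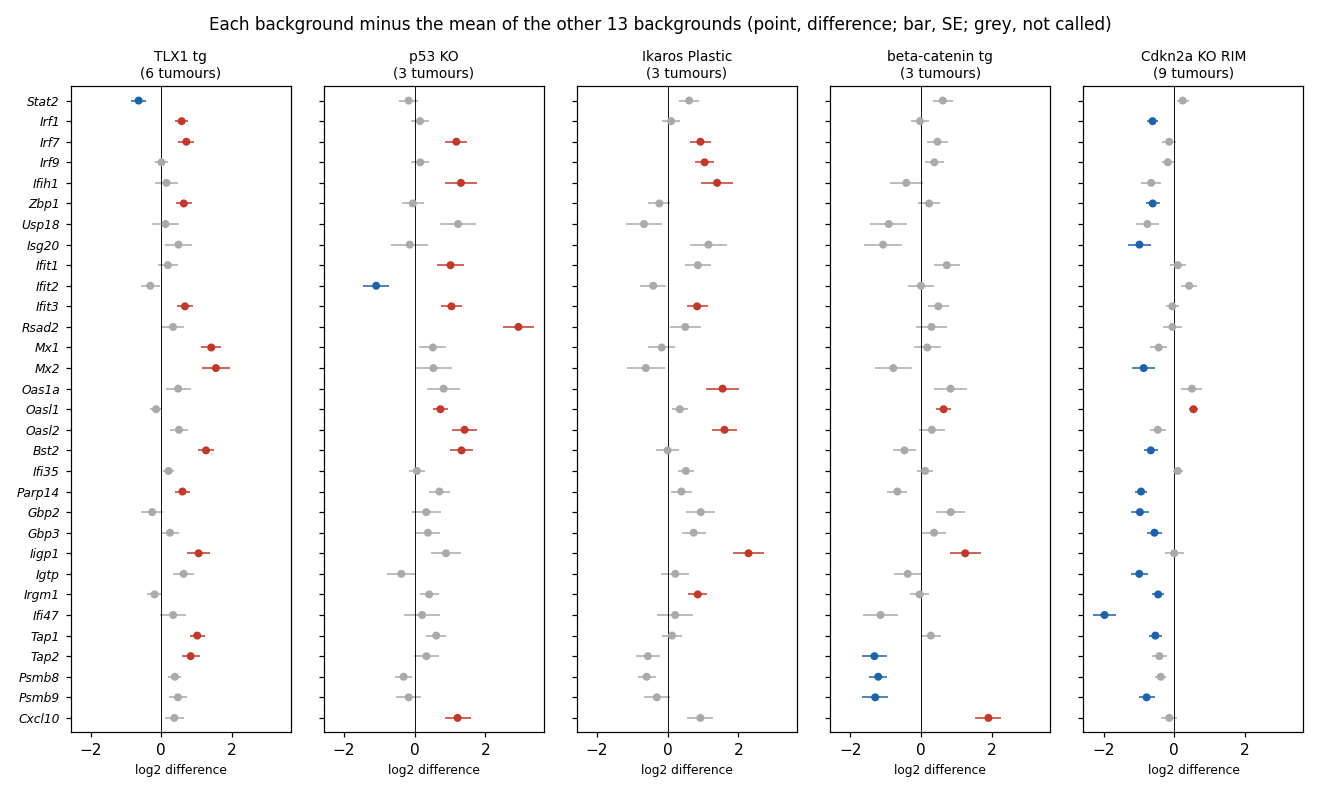
Points are the log2 difference of a background from the mean of the other 13, bars its SE, for the 31 genes in the 5 backgrounds with the most calls; red is called higher, blue called lower and grey not called. *Rsad2* in p53 knockout tumours (2.94) lies farthest right and *Ifi47* in Cdkn2a knockout tumours (-1.97) farthest left.

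The interferon genes themselves gave low signals. The 5 with a probe set of their own, *Ifnb1*, *Ifna1*, *Ifna2*, *Ifna4* and *Ifng*, exceeded the array median on 0 arrays, with signals of 0.373 to 96.2. All 8 genes of a list of receptor chains and receptor kinases were tested. *Ifngr1*, a chain of the type II receptor, was higher in TLX1 tumours (600 to 1838, against 229 to 1720 in the other 41; 1.27 ± 0.30, adjusted p = 0.00149), as were 2 others of the list. In Cdkn2a knockout tumours *Ifngr2* was higher by 0.75 ± 0.21 (adjusted p = 0.00603), the one receptor gene called there. Among regulators, *Socs3*, a feedback inhibitor of cytokine receptors, was lower in Cdkn2a knockout tumours (26.4 to 377, against 20.4 to 1381 elsewhere), by -2.13 ± 0.37 (adjusted p = 5.13e-05). *Irf8*, a factor of the same family known from myeloid cells and B cells, was higher in TLX1 (1.38 ± 0.23) and p53 knockout tumours (1.14 ± 0.32) and lower in Tal1-LMO2 tumours (-1.43 ± 0.32). *Trim24*, a repressor of interferon responses in mice, was higher in p53 knockout tumours by 1.10 ± 0.31.

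*Irf7*, the factor that amplifies type I interferon production and is itself induced by it, was higher in 3 backgrounds. Its signal was 94.6, 373 and 149 in p53 knockout tumours 1, 2 and 3, against a median of 66 and a range of 27.1 to 268 in the other 44, a difference of 1.18 ± 0.31 (adjusted p = 0.00582). Tumour 2 was above all tumours of other backgrounds, and tumours 1 and 3 lay within their range. Ikaros Plastic tumours had 103, 221 and 136 (0.92 ± 0.31, adjusted p = 0.0274), and the 6 TLX1 tumours 103 to 146 with a median of 130 (0.71 ± 0.23, adjusted p = 0.0154), against a median of 62.3 in TLX1 negative tumours. Each of those tumours exceeded the median of the tumours it was compared with, and each lay within their range. In bulk tumour RNA, more cells of a type and more RNA per cell cannot be told apart. The 3 calls were lost when tumours were left out: 0.67 (adjusted p = 0.254) without p53 knockout tumour 2, 0.65 (0.312) without Ikaros Plastic tumour 2 (it was also lost without tumour 3), and 0.61 (0.223) without TLX1 tumours 2, 5 and 6.

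The other factors moved in fewer groups. *Irf9*, the DNA-binding subunit of the type I response complex, had 153, 276 and 268 in Ikaros Plastic tumours 1, 2 and 3, against a median of 105 and a range of 51.1 to 267 elsewhere (1.04 ± 0.26, adjusted p = 0.00437), a call lost without tumour 2. *Irf1*, an early target of type II interferon, was higher in TLX1 tumours (516 to 1215, median 627, against a median of 457 and a range of 197 to 838; 0.58 ± 0.19, adjusted p = 0.0185), a call lost without tumour 3 or 4. It was lower in Cdkn2a knockout tumours (197 to 491, median 305, against a median of 533 and a range of 198 to 1215; -0.61 ± 0.16, adjusted p = 0.0036). *Stat2* was lower in TLX1 tumours by -0.64 ± 0.20 (adjusted p = 0.0138), but the call was lost without tumour 5, and without tumours 2, 5 and 6 the difference was -0.10. A second probe set of the gene differed by 0.113 in TLX1 tumours, but it exceeded the array median on 0 arrays and did not pass the filter on low signals.

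Among the sensors and the ISG15 system, 3 genes were tested. *Ifih1*, the double-stranded RNA sensor MDA5, was higher in p53 knockout tumours (94.7, 244 and 250; 1.31 ± 0.46, adjusted p = 0.0376) and Ikaros Plastic tumours (216, 274 and 117; 1.39 ± 0.46, adjusted p = 0.0266), with medians of 64.8 in both sets of other tumours. The call was lost without p53 knockout tumour 2 or 3 and without Ikaros Plastic tumour 1 or 2. *Zbp1*, a sensor of Z-form nucleic acids, was higher in TLX1 tumours (107 to 180, median 144, against a median of 87.1; 0.64 ± 0.23) and lower in Cdkn2a knockout tumours (21.8 to 187, median 44.1, against a median of 93.4; -0.61 ± 0.19), calls lost without TLX1 tumour 2, 3 or 5 and without Cdkn2a knockout tumour 5 or 6. *Usp18*, the protease that removes ISG15 from proteins, was the one list member called in ThPOK tumours. Its signal there was 136, 1460 and 1294, against a median of 88.1 and a highest value of 737 in the other 44. Tumours 2 and 3 lay above every other tumour of the series and tumour 1 did not, and the difference of 2.39 ± 0.52 (adjusted p = 0.00259) was not called without tumour 2 or without tumour 3. Macrophage markers, 8 of 12, were called higher in ThPOK tumours, and their part was not tested.

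Antiviral effectors rose in p53 knockout tumours, 6 of 13 measured, with 1 lower, where 12.4% of all genes were higher and 9.34% lower. *Rsad2*, which encodes viperin and whose promoter is printed above, gave 122, 2002 and 667 in tumours 1, 2 and 3, against a median of 69.3 and a range of 14.1 to 186 in the other 44. Tumours 2 and 3 exceeded all other tumours of the series, and the difference of 2.94 ± 0.44 (adjusted p = 1.83e-05) was the largest of the list. Without tumour 2, whose T-cell markers were low, it was 2.03 (adjusted p = 0.00649). The gene has 3 probe sets; those not used for the test differed by 1.63 and 2.75 in the same direction. *Oasl2*, an oligoadenylate synthetase-like gene, had 37.4, 296 and 98.6 (1.42 ± 0.36, adjusted p = 0.00469), with a median of 26.4 elsewhere, and *Bst2*, the virus tether also called tetherin, 321, 825 and 259 (1.33 ± 0.32, adjusted p = 0.00307), with a median of 141.

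The *Ifit* genes, whose products bind viral RNA, differed among themselves in these tumours. *Ifit1* had 12.4, 130 and 152, against a median of 27.7 and a highest value of 109 elsewhere (1.02 ± 0.37, adjusted p = 0.0454). The call of *Ifit1* was lost in 16 of the 47 fits that left out 1 tumour of the series. It was also lost with a pseudocount of 1 and after quantile normalization. *Ifit3* had 35.6, 237 and 81.8, against a median of 38.6 (1.04 ± 0.30, adjusted p = 0.0115). In both genes tumours 2 and 3 were high and tumour 1 lay below the median of the other tumours. *Ifit2* was called lower (-1.09 ± 0.36, adjusted p = 0.029) through tumour 1 alone, at 2.9, where tumours 2 and 3 had 136 and 201 and the other 44 had a median of 177. *Oasl1* was higher by 0.73 ± 0.22 (56.6, 109 and 129, against a median of 51). Of the 10 genes called in this background, 2 were called without tumour 2, 1 higher (*Rsad2*) and 1 lower (*Ifit2*), and the endothelial and stromal markers named above, 7 of 8 each called higher, moved with tumour 2. Their part in the result was not tested.

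**Figure D3:**
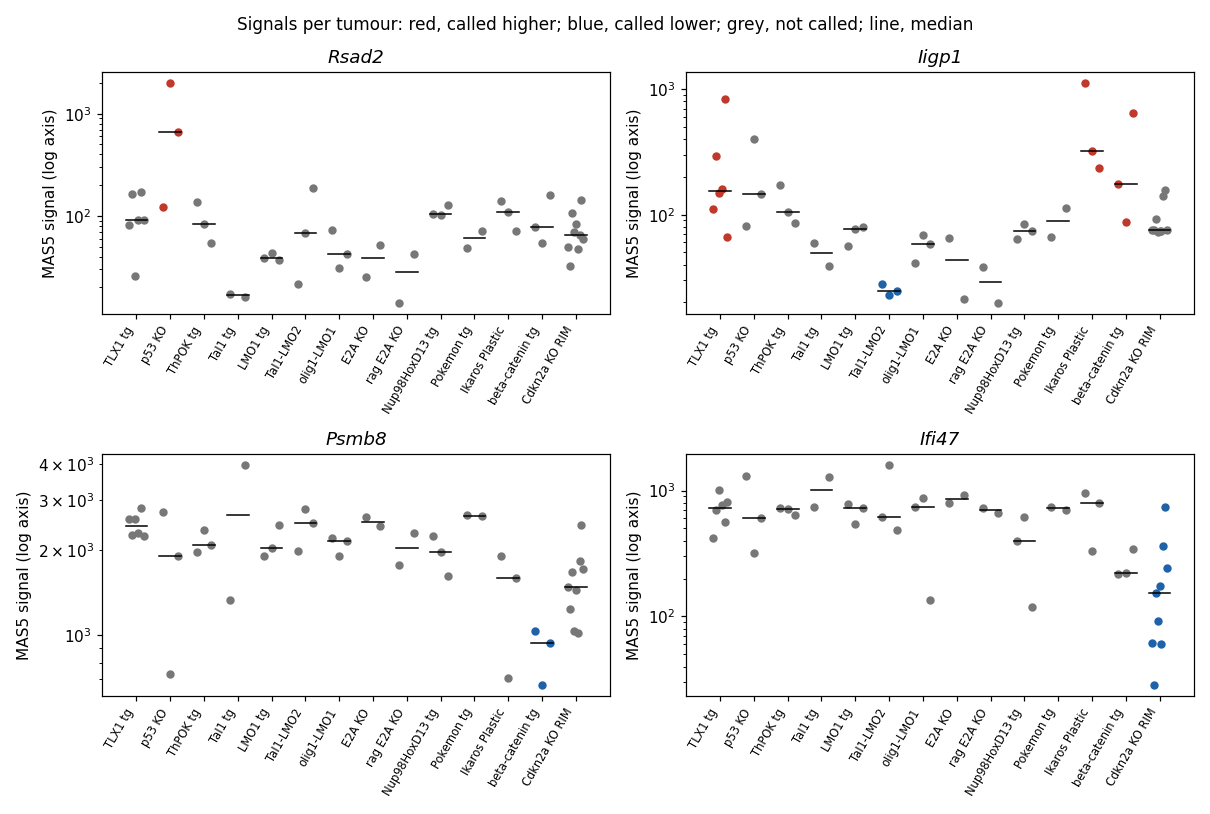
Points are MAS5 signals of 1 gene per panel in each tumour, on a log axis, by background; lines are medians, red marks backgrounds called higher and blue those called lower. *Rsad2* reaches 2002 in a p53 knockout tumour, *Iigp1* 1124 in an Ikaros Plastic tumour, *Psmb8* is lowest in beta-catenin tumours and *Ifi47* in Cdkn2a knockout tumours.

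TLX1 tumours had 5 of 13 effectors higher, led by the *Mx* genes, where 19% of all genes were higher. This set overlapped that of p53 knockout tumours, where *Bst2* and *Ifit3* were also called higher. *Mx1* and *Mx2* encode dynamin-like GTPases that block virus replication, and many inbred mouse strains carry non-functional alleles. *Mx1* ran from 28.9 to 258 with a median of 74.7 in TLX1 tumours, against 1.76 to 72.7 with a median of 22.6 in the other 41 (1.41 ± 0.28, adjusted p = 0.000225). Tumours 1, 2 and 5 lay above all TLX1 negative tumours. *Mx2* ran from 2.05 to 340 with a median of 109, against 2.31 to 139 with a median of 6.62 (1.54 ± 0.39, adjusted p = 0.00253). TLX1 tumours 1 and 2 were above all others and tumour 6 was the lowest of the series. High *Mx2* was not particular to TLX1: the Tal1 tumours had 139 and 65.4 and one Nup98HoxD13 tumour had 125, in groups that were not called. *Bst2* ran from 143 to 738 with a median of 445 in TLX1 tumours, against 61.7 to 825 with a median of 131 (1.26 ± 0.23, adjusted p = 9.58e-05).

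The remaining effectors called in TLX1 tumours were *Ifit3* (0.67 ± 0.22, adjusted p = 0.0184) and *Parp14*, an ADP-ribosyltransferase (0.60 ± 0.21, adjusted p = 0.0285). Without tumour 2 or without tumour 5 neither was called, and without tumour 3 or 4 *Parp14* was not. *Rsad2*, the gene that rose most in p53 knockout tumours, differed by 0.33 and *Ifit1* by 0.18 in TLX1 tumours, neither called. Set against all 41 TLX1 negative tumours pooled, 8 genes were higher and 1 lower (*Mx2* 1.68, *Mx1* 1.45, *Bst2* 1.32, *Tap1* 1.06, *Tap2* 0.88, *Parp14* 0.73, *Zbp1* 0.70, *Irf1* 0.65 and *Stat2* -0.69), where 12.6% of all genes were higher and 8.86% lower. With background as a random block in limma 0 of the 31 were called, where 0.0227% of all genes were. In that fit 4 of the 31 had an unadjusted p under 0.05, where 11.3% of all genes did. Without TLX1 tumours 2, 5 and 6, which had the highest 3'/5' ratios, 4 genes were called against the other backgrounds, where 12 were with them: *Mx1* (1.35, adjusted p = 0.0108), *Mx2* (1.83, 0.0106), *Bst2* (0.92, 0.0422) and *Irf1* (0.86, 0.0286). Without tumour 5 alone 7 were called. Neutrophil markers, 6 of 8 called higher in TLX1 tumours, and stromal markers, also 6 of 8, had their highest sums in tumour 2 (64990 and 10100) and reached 7749 and 8215 in tumour 5. Their part was not tested.

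In Ikaros Plastic tumours 3 of 13 effectors were higher, *Oas1a*, *Oasl2* and *Ifit3*, where 15% of all genes were. *Oas1a* encodes an oligoadenylate synthetase, which activates RNase L. Its signals were 220, 276 and 251, against a median of 86.2 and a range of 3.19 to 639 elsewhere (1.55 ± 0.48, adjusted p = 0.0175), and *Oasl2* signals were 61.4, 283 and 102, against a median of 26.4 (1.60 ± 0.36, adjusted p = 0.0019). All 3 tumours exceeded those medians. *Ifit3* had 58.6, 105 and 77.3 (0.83 ± 0.30, adjusted p = 0.0409), and *Irgm1*, an immunity-related GTPase, 343, 306 and 261, against a median of 158 (0.85 ± 0.27, adjusted p = 0.0234). Array medians of these tumours were 94.6 to 106, against 49.6 to 96.6 in the other tumours, and after quantile normalization 3 genes were called, where 8 were without it. The share of all genes called after that normalization is not given here. Without tumour 2, whose summed T-cell markers were 8469, 1 was called, *Iigp1* (2.51, adjusted p = 0.00324). Macrophage markers (7 of 12) and stromal markers (5 of 8) were called higher in the group, and their part was not tested.

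The inducible GTPases attack the vacuoles of intracellular pathogens and are strong targets of type II interferon. They fell in Cdkn2a knockout tumours, in which 5 of 6 were lower, where 14.6% of all genes were. Among those 5, *Igtp*, *Gbp3* and *Irgm1* did not pass the F test over all backgrounds. *Ifi47*, also called IRG-47, ran from 28.5 to 739 with a median of 153 in the 9 Cdkn2a knockout tumours, against 119 to 1593 with a median of 707 in the other 38. Tumours 1 to 6 had 28.5 to 174 and tumours 7 to 9 had 244 to 739, so the tumours of this background differed among themselves. The difference was -1.97 ± 0.32 (adjusted p = 1.46e-05) and stayed between -2.78 and -1.59 over the alternative settings. *Igtp*, whose promoter holds both elements, ran from 77.8 to 495 with a median of 194, against 115 to 1040 with a median of 427 (-0.99 ± 0.24, adjusted p = 0.00217). *Gbp2*, with the response element at -59 from its start, ran from 25.3 to 131 with a median of 46.5, against 34.2 to 690 with a median of 138 (-0.97 ± 0.26, adjusted p = 0.0041). In both genes tumours 7 to 9 were the highest of the group, and the groups overlapped.

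*Gbp3* (-0.56 ± 0.21) and *Irgm1* (-0.45 ± 0.17), relatives of these genes, were lower by less, and the calls were lost in 5 and 6 of the 9 fits without 1 Cdkn2a knockout tumour, and with the pseudocount at the median signal. *Iigp1* was the GTPase not called there, at 72.9 to 158 (median 76) in Cdkn2a knockout tumours, against a median of 80.2 elsewhere (0.00 ± 0.27, adjusted p = 0.999). It was called in 4 other backgrounds. In Ikaros Plastic tumours *Iigp1* had 1124, 320 and 237, against a median of 76 and a highest value of 842 in the other 44 (2.28 ± 0.43, adjusted p = 0.000433). It was higher in beta-catenin tumours (176, 87.5 and 649; 1.25 ± 0.43, adjusted p = 0.0383) and TLX1 tumours (65.9 to 842; 1.05 ± 0.32, adjusted p = 0.0105). Those calls were lost without beta-catenin tumour 1 or 3 and without TLX1 tumour 5. For *Iigp1* in beta-catenin tumours, quantile normalization or the pseudocount at the median signal also removed the call. In Tal1-LMO2 tumours it was lower (27.8, 23 and 24.7; -1.47 ± 0.43, adjusted p = 0.0319), as was *Ifit3* (3.86, 21.6 and 14; -1.05 ± 0.30, adjusted p = 0.0254). All Tal1-LMO2 values of *Iigp1* lay near the lowest of the series. Without 1 of the 3 tumours in turn, *Iigp1* was called in 0 fits, and 0 or 1 member was called in all. There 10 of 12 macrophage markers and 7 of 8 stromal markers were also lower, summed to 1153 to 2667 and 280 to 551, and their part in the 2 calls was not tested.

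The remaining members lower in Cdkn2a knockout tumours were antiviral effectors and antigen-processing genes. *Isg20*, an RNA exonuclease, had a median of 31.9 and a range of 23 to 480, against a median of 98.3 and a range of 23.5 to 881 (-0.98 ± 0.33, adjusted p = 0.0203). Tumour 8 alone was high. *Parp14* ran from 46.5 to 199 with a median of 91.8, against 58.8 to 549 with a median of 189 (-0.94 ± 0.18, adjusted p = 0.000145). *Psmb9*, an immunoproteasome subunit, ran from 182 to 828, against 166 to 1330 (-0.78 ± 0.22, adjusted p = 0.00769), and *Tap1*, a chain of the peptide transporter, from 118 to 415, against 118 to 760 (-0.53 ± 0.18, adjusted p = 0.0227). The call of *Tap1* was lost without tumour 1, 2, 4 or 6, and that of *Isg20* with the pseudocount at the median signal. *Bst2* (-0.66 ± 0.20) and *Mx2* (-0.86 ± 0.33, with all 9 tumours at 10.3 or less) were lower as well. Those *Mx2* signals lay below the pseudocount of 15.9, and *Mx2* exceeded the array median on 10 of the 47 arrays. The call of *Mx2* was lost in 16 of the 47 fits that left out 1 tumour of the series, 8 of them without a Cdkn2a knockout tumour, and with the pseudocount at the median signal. *Oasl1* was the one member higher, by 0.54 ± 0.14 (50.1 to 156, median 79.2, against a median of 44.8; adjusted p = 0.00285). With the replicate number of the titles in the fit as a block, the calls of *Oasl1*, *Bst2*, *Mx2* and *Gbp3* were lost.

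Genes outside the list were lower in the same tumours. Of 19 other interferon-stimulated genes tested, 11 were lower and 1 higher in Cdkn2a knockout tumours, with a median of -0.43. Of all genes 14.6% were lower and 16.1% higher there. *Psmb10*, the third inducible proteasome subunit, differed by -0.88 ± 0.18, the peptide-loading chaperone *Tapbp* by -0.87 ± 0.20, the proteasome activator *Psme1* by -0.61 ± 0.12 and the STAT-interacting *Nmi* by -0.95 ± 0.15 (adjusted p = 1.25e-05). These 4 were singled out after their values were seen. Without tumour 8 the count of members lower was 15, against 13 with it, and without tumour 6 it was 8. T-cell markers summed to 6671 to 13380 in the group, with 2 of 7 called lower, and 5 of 12 macrophage markers were called higher. Their part was not tested.

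Of the 4 antigen-processing members, 3 were lower in beta-catenin tumours, where 7.42% of all genes were. *Psmb8*, an immunoproteasome subunit whose promoter window holds the gamma-activated letters, had 1034, 668 and 941, against a median of 2054 and a range of 710 to 3976 in the other 44 (-1.21 ± 0.25, adjusted p = 0.00076). *Psmb9* had 361, 166 and 350, against a median of 694 (-1.29 ± 0.36, adjusted p = 0.0101), and *Tap2*, the partner chain, had 396, 171 and 359, against a median of 730 (-1.32 ± 0.34, adjusted p = 0.00633). In all 3 genes tumour 2 was the lowest of the series, and without it *Psmb9* (adjusted p = 0.154) and *Tap2* (0.126) were not called, while *Psmb8* was. *Tap1*, which lies between *Psmb9* and *Psmb8* on chromosome 17, was not called (460, 118 and 470, against a median of 247; 0.28 ± 0.29, adjusted p = 0.56). *Psmb10*, encoded elsewhere, was lower by -0.84 ± 0.29 (adjusted p = 0.0394).

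In the same tumours other interferon-induced genes were higher. *Cxcl10*, a chemokine that attracts activated T cells, had 152, 41.6 and 163, against a median of 14 and a highest value of 163 elsewhere (1.91 ± 0.37, adjusted p = 0.000318). Tumours 1 and 3 were close to the highest tumour of the rest, p53 knockout tumour 2. *Cxcl9*, its close relative, ran from 14 to 457 (2.35 ± 0.53, adjusted p = 0.00174), the checkpoint ligand *Cd274* from 204 to 395, above the highest value of 130 elsewhere (2.01 ± 0.27, adjusted p = 1.83e-06), *Socs1* from 294 to 409 (2.08 ± 0.38) and *Samhd1*, which depletes nucleotides against viruses, from 173 to 465 (1.80 ± 0.33). *Trim25*, a ligase of the RIG-I pathway, was lower by -1.02 ± 0.17. The list of other interferon-stimulated genes had 4 higher and 2 lower of 19, with a median of 0.05, where 11.4% of all genes were higher and 7.42% lower. *Oasl1* was higher by 0.64 ± 0.22, a call lost without any 1 of the 3 tumours, after quantile normalization and with the pseudocount at the median signal. Dendritic cell markers (3 of 5) and B cell markers (4 of 6) were called higher, with sums of 2848 to 3391 and 6430 to 8889, and their part was not tested.

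*Tap1* and *Tap2* were higher in TLX1 tumours. *Tap1* ran from 270 to 760 with a median of 470, against 118 to 546 with a median of 219 (1.01 ± 0.21, adjusted p = 0.00042), and *Tap2* from 484 to 1674 with a median of 1460, against 171 to 1962 with a median of 692 (0.83 ± 0.25, adjusted p = 0.0112). For *Tap2* tumour 4 alone lay below the median of the other tumours. *Psmb8* and *Psmb9* were not called there (0.38 and 0.47). Only 1 of the 4 *Tap1* probe sets passed the filter on low signals. *Cxcl10* was called higher in p53 knockout tumours as well (22.6, 163 and 50.2; 1.22 ± 0.37, adjusted p = 0.0165), a call lost without tumour 2.

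Each tumour was then read for a type I and a type II pattern. A gene counted as high in a tumour where it lay at least 1 log2 unit above its median over the 47 tumours, and a pattern meant at least 5 of the 9 type I genes or 3 of the 4 type II genes measured. The type I set was *Ifit1*, *Ifit2*, *Ifit3*, *Oas1a*, *Oasl1*, *Oasl2*, *Mx1*, *Mx2* and *Rsad2*, and the type II set *Gbp2*, *Irf1*, *Tap1* and *Psmb8*. A type I pattern was present in 2 of 47 tumours. p53 knockout tumour 2 had *Ifit1*, *Ifit3*, *Oas1a*, *Oasl2* and *Rsad2* high, and TLX1 tumour 2 had *Ifit3*, *Oas1a*, *Mx1*, *Mx2* and *Rsad2* high, 5 of 9 each. In those tumours 21% and 10.7% of all genes were that high. A further 4 tumours had 4 of 9 high: TLX1 tumour 5 (12.2% of all genes), p53 knockout tumour 3 (4.64%), Ikaros Plastic tumour 2 (16%) and beta-catenin tumour 3 (8.41%). In 25 tumours none of the 9 was high. The number of tumours with the pattern was 5 with a pseudocount of 1, 1 with a pseudocount of 72.3 and 8 at a limit of 0.5 log2 units.

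The share of all genes that high differed widely among these 6 tumours. p53 knockout tumour 3 combined 4 of 9 type I genes high (*Ifit1*, *Oasl1*, *Oasl2* and *Rsad2*) with the smallest share of all genes, and its summed T-cell markers (14900), endothelial markers (631) and stromal markers (4368) lay within the range of the other backgrounds. Ikaros Plastic tumour 2 and p53 knockout tumour 2 combined high type I genes with low antigen-processing genes other than *Tap1*. *Tap2*, *Psmb8* and *Psmb9* were at least 1 log2 unit below their medians in both, with *Psmb8* at 730 in the p53 knockout tumour and 710 in the Ikaros Plastic tumour, against a series median of 1988. There 13.5% and 8.32% of all genes were that low. *Tap1* lay 0.27 log2 units from its median in the p53 knockout tumour and -0.39 in the Ikaros Plastic tumour. Beta-catenin tumour 3 was alike, with *Psmb8* at -1.07, *Tap2* at -0.96, *Psmb9* at -0.93 and *Tap1* at 0.86 on that scale.

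No tumour met the rule for a type II pattern: 8 tumours had 1 of 4 genes high and 39 had none. *Psmb8* counted as high in no tumour (at most 0.9946, in Tal1 tumour 2), so the rule needed *Gbp2*, *Irf1* and *Tap1* together. *Irf1*, *Tap1* and *Psmb8* exceeded the array median on 47 of 47 arrays and *Gbp2* on 35, the type I genes on 5 to 45. With 1 limit for genes of such unlike level, the tumour counts of the 2 patterns cannot be set against each other. The mean of the 4 type II genes ran from -1.13 to 0.82 log2 units from their medians, and that of the 9 type I genes from -0.69 to 1.65. The low end of the type II mean was held by Cdkn2a knockout tumours (down to -1.13), where 3 of the 4 genes were called lower and the type I mean was -0.27 to 0.87. In Cdkn2a knockout tumour 6, 10 of the 31 genes were at least 1 log2 unit below their medians, against 4.53% of all genes, and in tumour 2 of that background 11 were, against 4.4%. TLX1 tumour 5 had the highest type II mean, 0.82, with *Tap1* high.

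**Figure D4:**
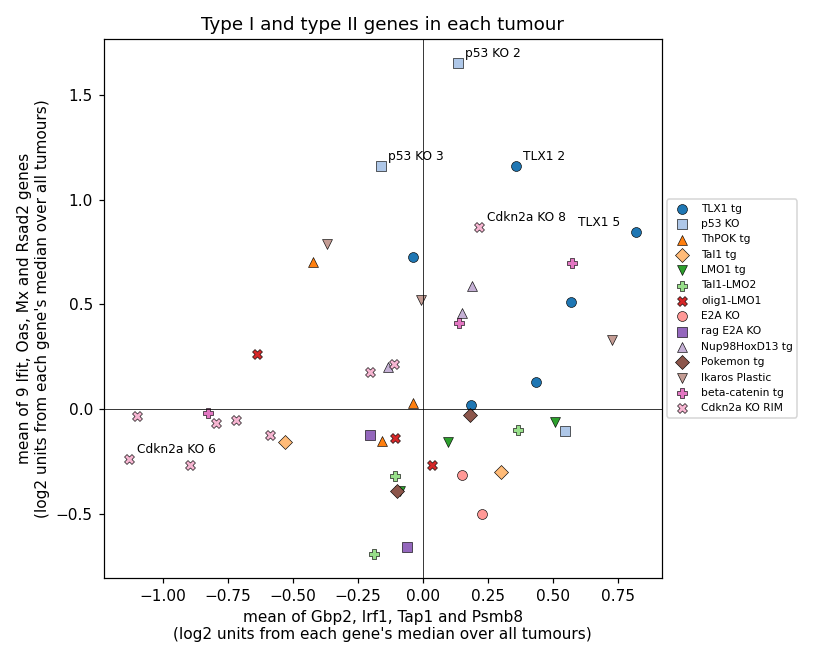
Each point is 1 tumour; the horizontal axis is the mean of the 4 type II genes and the vertical axis the mean of the 9 type I genes, both in log2 units from each gene's median over the 47 tumours. p53 knockout tumour 2 is highest (1.65), and Cdkn2a knockout tumours reach -1.13 to the left with type I means of -0.27 or more.

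The 2 kinds of gene were also followed as pairs across tumours, after subtracting each background's mean, so that only differences between tumours of one background count. For 7 pairs Pearson's r and Spearman's rho were computed over the 47 tumours with 100000 two-sided permutations within backgrounds and p adjusted over the 7. *Psmb8* and *Psmb9* gave r = 0.81 (permutation p = 1e-05, the smallest possible, adjusted 7e-05) and rho = 0.77, and *Tap1* and *Psmb9* gave r = 0.64 (adjusted permutation p = 0.000117) and rho = 0.64. *Irf1* and its target *Gbp2* gave r = 0.55 (adjusted permutation p = 0.000117) and rho = 0.65 (adjusted permutation p = 3.5e-05). These held without the 2 tumours farthest from the median of the first gene, at 0.79, 0.58 and 0.60. All values of one tumour come from one array and share its RNA quality and cell make-up.

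*Irf7* and *Rsad2* gave r = 0.53 (adjusted permutation p = 0.00677) but rho = 0.36 (adjusted permutation p = 0.0509), and r was 0.40 without Cdkn2a knockout tumour 8 and p53 knockout tumour 2. *Ifit1* and *Ifit3*, neighbours on chromosome 19, gave r = 0.54 (adjusted permutation p = 0.0176) and rho = 0.47 (0.0136), with r = 0.34 without p53 knockout tumour 1 and Cdkn2a knockout tumour 8. *Irf1* and *Tap1* gave r = 0.27 (adjusted permutation p = 0.0782) and rho = 0.36 (0.0371). The pair of one gene from each kind, *Rsad2* and *Gbp2*, gave r = 0.33 (adjusted permutation p = 0.0635) and rho = 0.31 (0.0777), which did not pass the threshold.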

How the data were processed

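Total RNA of each tumour was hybridised to 1 Affymetrix mouse array. The deposited values are MAS5 signal intensities on a linear scale, per the submitters' processing notes, and every array's trimmed mean lies between 250.063 and 250.129 (2% trimmed from each end), so arrays were already scaled. Depth does not apply, and the number of tumours limits precision. Probe sets with 1 gene symbol and above the array median on at least 2 arrays were kept, for each gene the one of highest mean log2 signal, which left 8810 of 12393 genes. Differences were fitted on log2(signal + 15.9) with limma 3.58.1 in R 4.3.3 (eBayes with trend) and adjusted by Benjamini-Hochberg, and the fit was tested on simulated data.

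Replicates are separate tumours by title, and nothing says whether they came from separate mice. Replicate numbers showed no pairing of tumours on average. After background means were subtracted, same-numbered tumours of different backgrounds correlated at a mean of -0.00105 over 227 pairs. Differently numbered tumours had a mean of 0.00043 over 442 pairs. Of the 227, 26 exceeded 0.1, a count not made for the 442. All 31 measured members are described; beyond those, pathway genes were to be named when called with a difference of at least 1, and those under that were singled out after their values were seen. The members and lists were chosen with earlier results of these data known. Alternatives were the pseudocount, no low-signal filter, the probe set of largest interquartile range, quantile normalization, a replicate block, background as a random block, and each tumour left out. Leaving out TLX1 tumours 2, 5 and 6 was added after seeing the data. The gene deleted in p53 knockout mice was not analysed here.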

Additional observations from a re-analysis of the deposited data

Results flagged for a closer look

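In the TLX1 and Cdkn2a knockout backgrounds, the 2 with at least 4 tumours, 62 sets of values (31 genes in each) were searched for 1 tumour far from the others by Dixon's test, and 7 were found. Chance gives about 5%. In TLX1 tumour 4 *Tap2*, a chain of the peptide transporter, had a signal of 484.1, where the next lowest of the 6 was 1114. The other 6 were all high values in Cdkn2a knockout tumour 8. *Oas1a* had 639.1 there (next highest 138.2), *Isg20* 479.7 (60.24), *Irf7* 267.5 (82.29), *Irf9* 266.8 (121.6), *Ifih1* 230.9 (61.47) and *Mx2* 10.28 (6.326). In that tumour 12.4% of all genes were at least 1 log2 unit above their median over the tumours, and whether that bears on these 6 genes was not tested.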

How the results depend on the processing

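Of 62 called member differences, 13 kept their call under every alternative and 1 reversed. With a pseudocount of 1, 3 members were called in Tal1, 5 in Tal1-LMO2 and 1 in rag E2A knockout tumours, and 5 tumours had a type I pattern; with the pseudocount at the median signal, 0 were called in Tal1-LMO2 tumours and 1 tumour had the pattern. A limit of 0.5 log2 units gave 8 tumours. Quantile normalization left 0 called in Tal1-LMO2 and 3 in Ikaros Plastic tumours. By TLX1 status 0 were called with background as a random block. Without TLX1 tumours 2, 5 and 6 there were 4 in TLX1, 1 in Nup98HoxD13 and 2 by TLX1 status. Without centring, *Irf1* and *Tap1* gave r = 0.473. The replicate block moved no count by over 1.5 times (8 in TLX1, 10 in p53 knockout, 10 in Ikaros Plastic, 11 in Cdkn2a knockout, 6 in beta-catenin and 3 in Tal1-LMO2 tumours), and 13 of 38 tumours correlated best with their own number. The number that chance would give was not computed.

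Leaving out 1 tumour at a time gave 7 to 13 calls in TLX1 (7 without TLX1 5), 2 to 10 in p53 knockout (2 without p53 knockout 2), 1 to 11 in Ikaros Plastic (1 without Ikaros Plastic 2) and 9 to 16 in Cdkn2a knockout tumours (9 without Cdkn2a knockout 6). It gave 5 to 10 by TLX1 status (5 without TLX1 2, 3 or 5), 0 to 2 in ThPOK and Tal1, 0 to 4 in Tal1-LMO2, 4 to 6 in beta-catenin (4 without any 1 of its tumours), and 0 to 1 in rag E2A knockout and Nup98HoxD13 tumours. *Ifit2* in p53 knockout tumours ran from -1.76 to 0.004439, which is the value without tumour 1. The cause of these shifts was not tested. For the alternative fits other than the random block, the share of all genes called is not given here, so a changed count cannot be set against the array. Groups of 2 or 3 tumours from 1 array each limit what can be called.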
